A study of Mus musculus with 6 samples.

Results

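The genes described here encode the proteasome of the mouse heart and were read from RNA-seq of WT and *Dst-b* mutant animals. They are the 47 of 13003 listed genes whose symbol starts with Psm, followed by a letter from a to g and a number, which takes in the core (*Psma*, *Psmb*), the regulatory particle (*Psmc*, *Psmd*), the activators (*Psme*), the inhibitor-related *Psmf1* and the core assembly chaperones (*Psmg*). The choice used the symbols and no measured value. The libraries came from ventricular myocardium of 3 WT mice, numbered 1, 3 and 4, and 3 mice homozygous for a nonsense allele of the muscle isoform of dystonin (*Dst-b*), numbered 1, 2 and 3, aged 14 to 19 months. The allele was made by genome editing on a C57BL/6J background and is carried in the germ line, and mutants came from crosses of heterozygotes. Both sexes were used in the study and more than 1 line of the allele was made, but the sex and the line behind each library are not given in the sources used here. Each library is 1 heart, so the tests set the difference between the genotypes against the spread between these hearts.

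The proteasome is the protease that breaks down ubiquitin-tagged proteins in the cytosol and the nucleus. Alpha and beta rings form a barrel with the cutting sites inside, and a regulatory particle on its ends holds the tagged protein, removes the ubiquitin, and unfolds and feeds in the chain. Interferon-gamma induces replacement catalytic subunits, the immunoproteasome, and an alternative cap that works without ubiquitin. In heart muscle the proteasome turns over sarcomeric and damaged proteins beside autophagy. The study treats the mutants as a model of protein aggregate myopathy, and the comparison asks whether the mRNAs of this machine differed between the genotypes.

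The stretches in front of the start sites are shown for 3 catalytic genes, since each constitutive catalytic subunit has an inducible counterpart and the comparison by genotype turns on both. They are taken from the RefSeq promoter table of GRCm38.p6 and are printed from 5′ to 3′ along the gene, with capitals for the motif letters found by a search of both strands. *Psmb5* encodes the chymotrypsin-like site, *Psmb6* the caspase-like site and *Psmb9* the inducible counterpart of *Psmb6*. For *Psmb5* (chr14:54617996-54618095, minus strand) and *Psmb6* (chr11:70525257-70525356, plus strand) the capitals mark an antioxidant response element, TGACNNNGC. For *Psmb9* (chr17:34187331-34187430, minus strand) they mark a GC box, GGGCGG, and a CCAAT box on the other strand.
Psmb5: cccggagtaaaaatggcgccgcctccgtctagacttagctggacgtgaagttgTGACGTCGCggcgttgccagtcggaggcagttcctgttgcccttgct
Psmb6: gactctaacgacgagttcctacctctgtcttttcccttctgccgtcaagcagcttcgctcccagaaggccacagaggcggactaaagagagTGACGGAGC
Psmb9: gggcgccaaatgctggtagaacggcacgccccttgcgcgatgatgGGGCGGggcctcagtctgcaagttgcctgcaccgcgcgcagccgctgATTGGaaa

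A further pair is shown for the activators. *Psme4* (chr11:30771675-30771774, plus strand) holds a GC box that shares a base with an ETS site, CCGGAAG. An antioxidant response element that begins at -7 runs past the end of this stretch and is left in lower case. *Psme1* (chr14:55578494-55578523, plus strand, the first 30 bases of the transcript) holds an interferon regulatory factor site, GAAANNGAA, on the other strand.
Psme4: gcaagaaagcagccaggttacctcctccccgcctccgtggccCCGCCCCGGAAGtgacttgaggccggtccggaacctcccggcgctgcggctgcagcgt
Psme1: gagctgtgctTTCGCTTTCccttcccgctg

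Promoter windows, from 250 bases before to 50 bases after a start, were given for 39 of the 47 members (42 windows). *Psma8*, *Psmb1*, *Psmb2*, *Psmb7*, *Psmc3*, *Psmd3*, *Psmd7* and *Psmg2* had no entry. The ETS letters were found in 35.7% of the member windows, against 16.6% of the windows of all tested genes and 8.86% of all windows. The interferon regulatory factor letters stood in 16.7% of member windows against 7.01% of those of tested genes, in *Psmb3*, *Psmb4*, *Psmc2*, *Psmd4*, *Psmd9*, *Psme1* and *Psmg4*. The antioxidant element was as frequent in member windows as in windows of tested genes (14.3% each), and its members were *Psmb5*, *Psmb6*, *Psmc6*, *Psmd9*, *Psmd12* and *Psme4*. The GC box stood in 57.1% against 61.5%, CCAAT in 31% against 37.1%, and the nuclear respiratory factor 1 letters GCGCANGCG in 16.7% against 12.7%. The cAMP response element TGACGTCA, which shares its first letters with the antioxidant element, was in no member window and in 2.87% of those of tested genes. These matches describe letters only, and no binding was measured.

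Depth was 40693854 to 57580110 tags per library. Counts are given as CPM, the count divided by the library total after TMM scaling, which serves to compare 1 gene between hearts, and RPKM, which the files give per length, serves to compare genes. The test was edgeR's quasi-likelihood test over 12955 genes, fitted by genotype alone, and the call rule asked for a p under 0.01 and, after Benjamini-Hochberg adjustment, under 0.1. By that rule 363 genes were higher and 238 lower in the mutant hearts. Total *Dst* mRNA differed by -0.06 on the log2 scale (standard error 0.07), but the count sums all isoforms and the allele is a nonsense mutation, so it does not check the genotype labels. The cardiomyocyte markers *Myh6*, *Tnnt2*, *Tnni3*, *Actc1*, *Ryr2* and *Pln* served to check that the tissue was heart muscle. Together they took 68901 to 71352 CPM in WT and 70293 to 79066 CPM in mutant hearts.

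None of the 47 proteasome genes was called between the genotypes. All 47 passed the filter on low counts, 46 of them with a CPM of at least 1 in every heart, and 0 were called higher and 0 lower, where 4.64% of all tested genes were called. An unadjusted p under 0.05 was found for 3 members (16.5% of all tested genes), the lid gene *Psmd7* on the higher side and the activator genes *Psme1* and *Psme2* on the lower side. For 9 members all mutant hearts lay on 1 side of all WT hearts, 3 higher (*Psmc2*, *Psmd7*, *Psmd14*) and 6 lower (*Psmb3*, *Psmb6*, *Psmb7*, *Psmb9*, *Psme1*, *Psme2*), against 21.9% of all tested genes. With DESeq2 and with edgeR's exact test 0 members were called as well, and 3 and 1 had an unadjusted p under 0.05. The lowest adjusted p by edgeR's quasi-likelihood test was 0.23, for *Psme2*.

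The differences were small in size as well as short of the threshold. The log2 fold changes, mutant against WT, ran from -0.28 for *Psmb9* to 0.15 for *Psme4*, with 22 above 0 and 25 below, and a median of -0.02 beside 0.00 for all tested genes. The median size regardless of sign was 0.055 on the log2 scale, against 0.118 for all tested genes. The members were also measured closely, with a median standard error of 0.068 against 0.109 for all tested genes and a median standard deviation between hearts of 1 genotype of 0.072 against 0.132 on the log2 scale. For 31 of the 47 members the 95% interval of the fold change lay within 1.2-fold in either direction, and for 46 it lay within 1.5-fold. The exception was *Psma8*, an alpha subunit of the testis, which stood at 0.80, 1.06 and 1.38 CPM in WT and 1.22, 1.64 and 0.41 CPM in mutant hearts (log2 fold change 0.03, 95% interval -0.96 to 1.02), so that a change of close to 2-fold was not detectable at this depth.

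**Figure D1:**
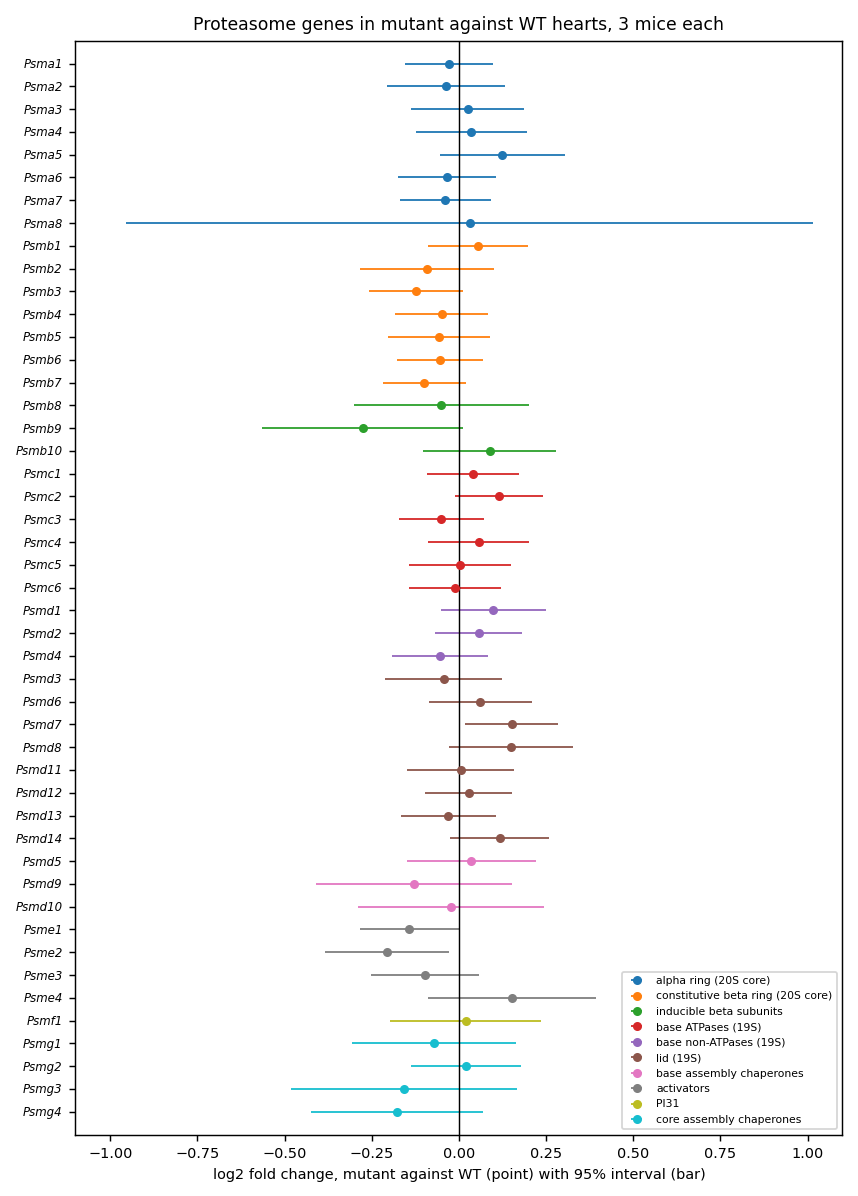
Log2 fold change of each of the 47 proteasome genes, mutant against WT (x axis; point), with its 95% interval from the edgeR fit (bar), n = 3 mice each, genes on the y axis grouped and coloured by role. The points lie between -0.28 (*Psmb9*) and 0.15 (*Psme4*), the intervals of *Psmd7*, *Psme1* and *Psme2* leave out 0, and that of *Psma8* is by far the widest.

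The levels of the genes covered a wide range within 1 machine. By RPKM, the WT mean was highest for *Psmc3*, an ATPase of the base, at 253 ± 7.21 (SD, n = 3), and for the alpha ring gene *Psma7* at 248 ± 8.06, and the values of these neighbours in the order overlapped. The beta ring genes *Psmb4* at 226 ± 10.04 and *Psmb1* at 219 ± 6.76 followed and overlapped each other. At the low end stood the inhibitor-related *Psmf1* at 3.40 ± 0.153 and *Psma8* at 0.635 ± 0.171 RPKM, and the chaperone genes *Psmg3* (8.39 ± 1.18) and *Psmd9* (8.60 ± 1.21), which overlapped. In mutant hearts *Psmc3* (246 ± 7.21) and *Psma7* (244 ± 13.3) led as well. The order depends on the deposited gene lengths, which were 0.325 to 2.79 times the longest coding transcript in GENCODE M21 and within 1.5-fold of it for 35 of the 47. They were long for *Psmb2*, *Psmb3* and *Psmb7* and short for *Psma2*, *Psmb9* and *Psme1*, and with the GENCODE length the WT mean of *Psmb7* would be 284 in place of 102 and that of *Psmb9* 7.09 in place of 17.6.

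**Figure D2:**
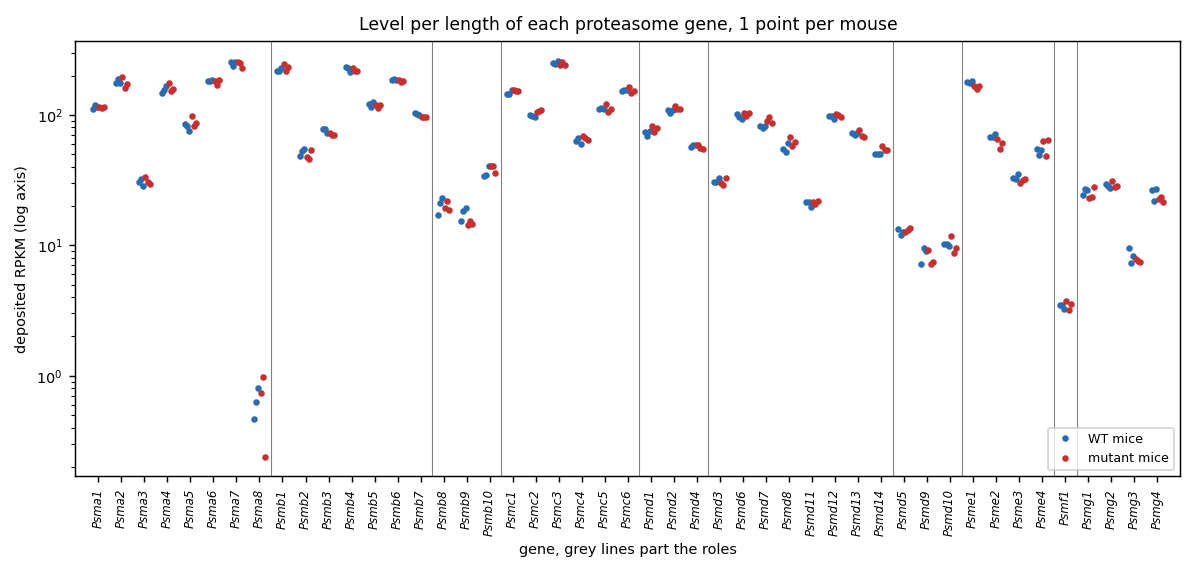
RPKM as deposited (y axis, log scale) of each proteasome gene (x axis), with 1 point per mouse, WT in blue and mutant in red, and grey lines between the roles. *Psmc3* leads with a WT mean of 253 RPKM, *Psmf1* and *Psma8* lie lowest with 3.40 and 0.635, and the points of both genotypes lie close together within each gene.

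The alpha ring, which gates entry to the barrel, was even between the genotypes. Of its 8 genes 4 had a log2 fold change above 0 and 4 below, with a median of -0.00, and 0 of the 8 had WT and mutant values apart. *Psma5*, the ring's highest log2 fold change, stood at 103, 101 and 91.7 CPM in WT hearts 1, 3 and 4 and at 117, 98.1 and 108 CPM in mutant hearts 1, 2 and 3. The groups overlapped through mutant heart 2 (0.12 on the log2 scale, standard error 0.08, adjusted p = 0.484 by edgeR's quasi-likelihood test). *Psma7*, the lowest, stood at 224, 211 and 224 CPM in WT and 219.8, 216 and 206 CPM in mutant hearts, a log2 fold change of -0.04 with a 95% interval from -0.17 to 0.09. Summed over the ring, WT hearts held 1073 ± 10.01 CPM and mutants 1069 ± 46.5 CPM.

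In the main fit the 7 constitutive beta genes leaned lower, by little. Of these, all but *Psmb1* had a log2 fold change below 0, with a median of -0.06, and 0 of the 7 were called by edgeR's quasi-likelihood test. With the replicate number added as a term, 3 of the 7 were above 0. *Psmb1*, a beta subunit without a catalytic site, stood at 225, 225 and 238 CPM in WT and 249, 221 and 245 CPM in mutant hearts, with groups that overlapped (log2 fold change 0.05). *Psmb3*, also non-catalytic, had the ring's lowest log2 fold change. Its values were 149, 147 and 138 CPM in WT and 134, 129.6 and 135 CPM in mutant hearts, every mutant heart below every WT heart (-0.12 on the log2 scale, standard error 0.06, adjusted p = 0.344 by edgeR's quasi-likelihood test). Mutant heart 2 was the lowest of the 6 libraries for all 7 of these genes. Their summed level was 1344 ± 5.12 CPM in WT hearts and 1293 ± 49.2 CPM in mutant hearts, 0.962 times the WT value. It was 1302, 1240 and 1338 CPM in mutant hearts 1, 2 and 3. All 3 lay under the WT range of 1339.7 to 1349.7 CPM, heart 3 just under it.

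None of the 3 constitutive catalytic subunits was called, though *Psmb6* and *Psmb7* had mutant values below all WT values. Values without overlap were found for 9 of the 47 members and for 21.9% of all tested genes. *Psmb5*, the chymotrypsin-like subunit whose upstream stretch is shown above, stood at 107, 101 and 110.2 CPM in WT hearts and 102, 97.4 and 107 CPM in mutant hearts. The groups overlapped (log2 fold change -0.06, 95% interval -0.20 to 0.09). *Psmb6*, the caspase-like subunit, stood at 194, 195 and 192 CPM in WT and 188, 181 and 191 CPM in mutant hearts, every mutant heart just below every WT heart (log2 fold change -0.05, 95% interval -0.18 to 0.07). *Psmb7*, the trypsin-like subunit, stood at 339, 329.9 and 328 CPM in WT and 306, 304 and 319 CPM in mutant hearts, with no overlap (-0.10 on the log2 scale, standard error 0.05, adjusted p = 0.4003 by edgeR's quasi-likelihood test). The lower bounds of the fold were 0.869 for *Psmb5*, 0.885 for *Psmb6* and 0.859 for *Psmb7*, and none of the 3 passed the test.

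The inducible counterparts of these subunits did not move in 1 direction. *Psmb8*, which replaces *Psmb5*, stood at 21.2, 26.0 and 28.3 CPM in WT and 23.2, 26.2 and 23.3 CPM in mutant hearts, with the mutant values inside the WT range (log2 fold change -0.05, 95% interval -0.30 to 0.20). *Psmb9*, which replaces *Psmb6*, stood at 8.35, 10.01 and 10.6 CPM in WT and 7.64, 8.16 and 8.08 CPM in mutant hearts. All 3 mutant hearts were below all WT hearts, the nearest pair being mutant heart 2 and WT heart 1, and the log2 fold change of -0.28 was the lowest of all members (standard error 0.13, adjusted p = 0.323 by edgeR's quasi-likelihood test). *Psmb10*, which replaces *Psmb7*, stood at 50.8, 51.4 and 61.1 CPM in WT and 59.0, 59.7 and 54.9 CPM in mutant hearts, where WT heart 4 lay above all mutant hearts and the other WT hearts below them (log2 fold change 0.09, 95% interval -0.10 to 0.28). *Psmb8* and *Psmb9* lie 10864 bases apart on chromosome 17, within the major histocompatibility complex, and *Psmb10* lies on chromosome 8. WT heart 4 was the highest of the 6 libraries for all 3 inducible genes.

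The share of inducible subunits among the 6 catalytic genes overlapped between the genotypes. By RPKM it was 13.9%, 15.4% and 16.8% in WT hearts 1, 3 and 4 and 15.6%, 16.8% and 14.9% in mutant hearts 1, 2 and 3, or 15.4% ± 1.48 against 15.7% ± 0.948 (SD, n = 3 each). The mutant range lay inside the WT range on this scale. For each 100 RPKM of *Psmb5* there were 16.9 ± 2.42 of *Psmb8* in WT and 17.0 ± 1.94 in mutant hearts, for each 100 of *Psmb6* there were 9.50 ± 1.17 and 8.13 ± 0.438 of *Psmb9*, and for each 100 of *Psmb7* there were 35.6 ± 4.26 and 40.5 ± 2.83 of *Psmb10*. These ratios between genes rest on the deposited lengths, and by CPM the shares were 12.4% ± 1.27 in WT and 13.1% ± 0.812 in mutant hearts. With the longest coding transcript of GENCODE M21 as the length, chosen after seeing the data, the shares fell to 9.01% ± 0.941 in WT and 9.56% ± 0.615 in mutant hearts. There were then 14.5 ± 1.74 and 16.5 ± 1.16 of *Psmb10* for each 100 of *Psmb7*, so the ratio depended on the length by more than it differed between the genotypes. The exons of *Psmb9* share 212 bases with *Tap1* on the opposite strand, and whether the authors counted by strand is not given in the sources used here.

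In the main fit the 17 genes of the regulatory particle leaned the other way from the core. A log2 fold change above 0 was found for 12 of the 17, with a median of 0.04, against 5 of the 15 constitutive core genes, with a median of -0.04. Neither group had a called member. Summed, the particle held 2931, 2875 and 2963 CPM in WT hearts and 3035, 2900.1 and 3046 CPM in mutant hearts. The constitutive core held 2412, 2425 and 2416 CPM in WT and 2413, 2259 and 2415 CPM in mutant hearts. Only mutant heart 2 lay outside the WT range in the core's sum. In mutant heart 1 that sum joined a beta ring sum below the WT range (1302 CPM) with an alpha ring sum above it. The alpha ring sum was 1111 CPM there, against 1062 to 1082 CPM in WT hearts. For the particle, mutant hearts 1 and 3 lay above the WT range and heart 2 within it. Without mutant heart 2, picked out here for its low core sum, the counts above 0 were 6 of 15 core genes and 13 of 17 particle genes. With the replicate number added as a term, they were 8 of 15 core genes, with a median of 0.002, and 14 of 17 particle genes. The core's lean was thus gone in that fit. These counts were not tested.

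In the base of the particle no gene was called, though *Psmc2* was higher in each mutant heart than in any WT heart. *Psmc2*, an ATPase of the unfolding ring, stood at 177, 176 and 171 CPM in WT and 185, 186 and 197 CPM in mutant hearts (0.11 on the log2 scale, standard error 0.06, adjusted p = 0.349 by edgeR's quasi-likelihood test). *Psmc3*, another ATPase of the ring and the lowest by log2 fold change, stood at 418, 408 and 433 CPM in WT and 394, 414 and 408 CPM in mutant hearts, with groups that overlapped (-0.05). The 6 ATPase genes had a median log2 fold change of 0.02, with 4 above 0. Of the other base subunits, *Psmd1*, a large scaffold, stood at 243, 223 and 247 CPM in WT and 265, 236 and 263 CPM in mutant hearts, where only mutant heart 2 fell within the WT range (log2 fold change 0.10, adjusted p = 0.514 by edgeR's quasi-likelihood test). *Psmd4*, a ubiquitin receptor, stood at 72.0, 74.4 and 74.9 CPM in WT and 72.5, 69.6 and 71.1 CPM in mutant hearts, with overlap (log2 fold change -0.05).

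The lid, which removes ubiquitin from the substrate, held the highest member of the particle. *Psmd7*, the partner of the deubiquitinase in the lid, stood at 115, 111 and 115 CPM in WT hearts 1, 3 and 4 and at 123, 132 and 123 CPM in mutant hearts 1, 2 and 3. Every mutant heart lay above every WT heart, a fold of 1.11 with a 95% interval from 1.01 to 1.22 (adjusted p = 0.245 by edgeR's quasi-likelihood test), and the call rule was not met. *Psmd14*, the deubiquitinase itself, stood at 75.6, 75.4 and 75.0 CPM in WT and 85.1, 78.1 and 81.9 CPM in mutant hearts, again without overlap (0.12 on the log2 scale, standard error 0.06, adjusted p = 0.398 by edgeR's quasi-likelihood test). *Psmd8*, a structural lid subunit, stood at 121, 113 and 132 CPM in WT and 144, 125 and 138 CPM in mutant hearts, with overlap through mutant heart 2 and WT heart 4 (log2 fold change 0.15, adjusted p = 0.385 by the same edgeR test). *Psmd3*, also structural, was the lowest at 123, 123 and 132 CPM in WT and 118, 114 and 134 CPM in mutant hearts (log2 fold change -0.04). Of the 8 lid genes 6 were above 0, with a median log2 fold change of 0.04 and none called.

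**Figure D3:**
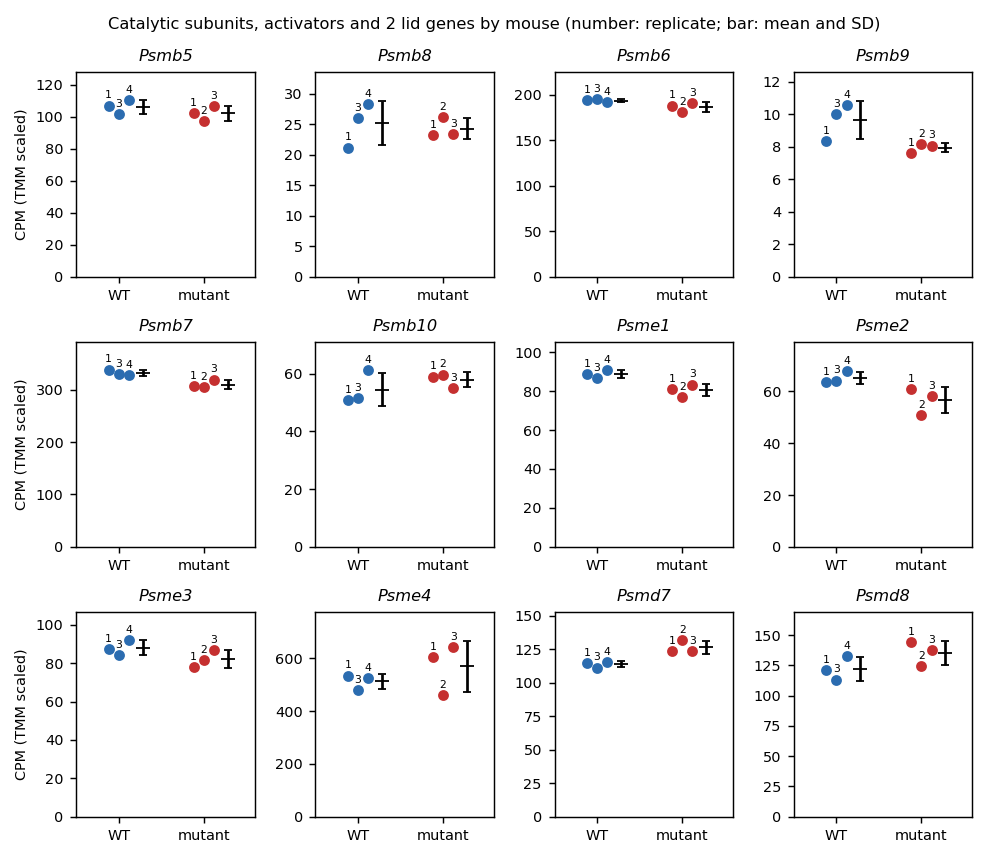
CPM with TMM scaling (y axis, from 0) of the 6 catalytic subunits, the 4 activators and the lid genes *Psmd7* and *Psmd8* in WT (blue) and mutant (red) mice, numbered by replicate, with mean and SD as bars, n = 3 each. *Psme1*, *Psme2*, *Psmb6*, *Psmb7* and *Psmb9* sit lower and *Psmd7* higher in all mutant mice, and mutant mouse 2 stands apart in *Psme4* at 462 CPM against 603 and 642.

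The activators divided, with *Psme1* and *Psme2* lower and *Psme4* mixed. *Psme1* and *Psme2* encode the alpha and beta subunits of PA28, the interferon-inducible cap, and lie 5912 bases apart on chromosome 14. *Psme1* stood at 88.8, 86.8 and 90.9 CPM in WT and 81.0, 77.1 and 83.3 CPM in mutant hearts. *Psme2* stood at 63.7, 64.2 and 68.0 CPM in WT and 60.8, 50.9 and 58.1 CPM in mutant hearts. In both genes each mutant heart was below each WT heart, and mutant heart 2 was the lowest. The folds were 0.906 for *Psme1* (95% interval 0.821 to 0.999, adjusted p = 0.299) and 0.867 for *Psme2* (95% interval 0.766 to 0.980, adjusted p = 0.23) by edgeR's quasi-likelihood test, and neither was called. Leaving out 1 library at a time kept *Psme2* below WT, with log2 fold changes from -0.26 to -0.14 and adjusted p values by the same edgeR test from 0.291 to 0.416.

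*Psme3*, which encodes the gamma activator of the nucleus, stood at 87.3, 84.4 and 92.1 CPM in WT and 78.0, 81.6 and 86.9 CPM in mutant hearts. Only mutant heart 3 fell within the WT range (log2 fold change -0.10, 95% interval -0.25 to 0.06). *Psme4*, which encodes the large activator PA200, stood at 534, 478 and 525 CPM in WT and 603, 462 and 642 CPM in mutant hearts. Mutant hearts 1 and 3 were above all WT hearts and mutant heart 2 below them, for a difference of 0.15 on the log2 scale (standard error 0.11, adjusted p = 0.535 by edgeR's quasi-likelihood test). Without mutant heart 2 the log2 fold change was 0.28 and *Psme4* passed the call rule (adjusted p = 0.0828 by edgeR's quasi-likelihood test). Since *Psme4* holds most of the activators' counts through its long mRNA, their summed CPM was 754 ± 35.2 in WT and 788 ± 104 in mutant hearts, whereas their summed RPKM was 333 ± 9.42 and 314 ± 17.9.

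Taken as the set that interferon induces, *Psmb8*, *Psmb9*, *Psmb10*, *Psme1* and *Psme2* had 1 gene above 0 and 4 below, with a median log2 fold change of -0.14 and none called. WT heart 4 was the highest library for all 5. Their summed level was 233, 238 and 259 CPM in WT and 231, 222 and 228 CPM in mutant hearts. Every mutant sum was below every WT sum, with WT heart 1 and mutant heart 1 next to each other. Without *Psme1* and *Psme2* the sums overlapped, at 80.3, 87.4 and 99.99 CPM in WT and 89.8, 94.1 and 86.3 CPM in mutant hearts. Of 18 other genes of antigen processing and interferon signalling, none was called and 9 had a log2 fold change above 0. The smallest p values belonged to *Calr*, the chaperone calreticulin (log2 fold change 0.26, adjusted p = 0.252 by edgeR's quasi-likelihood test), and *Ifngr2*, an interferon-gamma receptor chain (log2 fold change -0.23, adjusted p = 0.323).

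In bulk tissue, fewer cells of a type and less RNA per cell cannot be told apart, and some cell type markers were called between the genotypes. Of 6 endothelial markers 2 (*Tie1*, *Egfl7*) were called lower. The list summed to 1029 to 1176 CPM in WT and 923 to 1045 CPM in mutant hearts, ranges that overlapped. Of 6 pericyte and smooth muscle markers 3 (*Rgs5*, *Pdgfrb*, *Kcnj8*) were called lower. *Myh11*, *Tagln* and *Cspg4* of that list had log2 fold changes of -0.05, -0.002 and -0.01. The list summed to 564 to 607 CPM in WT and 416 to 517 CPM in mutant hearts, of which *Rgs5* held a mean of 319 and 227 CPM. No macrophage marker of 5 listed was called (305 to 310.2 CPM against 289 to 345 CPM), nor either of the lymphocyte markers listed, *Ptprc* and *Cd3g*, which summed to 16.0 to 17.1 CPM in WT and 17.8 to 21.9 CPM in mutant hearts. *Actc1* was called higher among 6 cardiomyocyte markers and *Col1a1* among 6 fibroblast markers. None of the red cell (2), Schwann cell (3) and skeletal muscle (3) markers listed was called. The part of these cell types in the proteasome values was not tested.

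The genes of the proteins that assemble the proteasome had low mRNA levels and no call. *Psmg2* and *Psmg4* were the highest and the lowest of the 4 core chaperone genes by log2 fold change. *Psmg2* stood at 39.97, 38.7 and 37.8 CPM in WT and 41.5, 37.5 and 39.1 CPM in mutant hearts (0.02), and *Psmg4* at 14.4, 12.0 and 14.7 CPM and 12.0, 12.5 and 11.8 CPM (-0.18, 95% interval -0.43 to 0.07). Both overlapped between the genotypes. Of the base chaperones, *Psmd5* stood at 27.6, 24.6 and 26.2 CPM in WT and 25.4, 26.4 and 28.6 CPM in mutant hearts (0.04). *Psmd9* stood at 18.8, 24.7 and 23.7 CPM in WT and 23.3, 18.3 and 19.9 CPM in mutant hearts, a spread within each genotype wider than the difference (-0.13, 95% interval -0.41 to 0.15). Its exons share 1849 bases with a noncoding gene of the opposite strand. *Psmf1*, which encodes the proteasome-binding protein PI31, stood at 19.4, 19.4 and 18.0 CPM in WT and 20.5, 17.2 and 19.9 CPM in mutant hearts (0.02, 95% interval -0.20 to 0.24).

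Mutant heart 2 held the lowest of the 6 values for 22 of the 47 members (46.8%), where it held the lowest for 16.6% of all tested genes. The 22 included all 7 constitutive beta genes, 3 of the 8 alpha ring genes and 3 of the 4 activators. Over all members its median deviation from a gene's mean was -0.07 on the log2 scale, against 0.00 over all tested genes, while mutant heart 1 (0.03) held the highest value for 17 members. Summed over the members, WT hearts held 6364, 6268 and 6423 CPM and mutant hearts 6529, 6078 and 6586 CPM, so that the mutant values lay on both sides of the WT range. Without mutant heart 2 the members' median log2 fold change was 0.02 in place of -0.02, and 25 of 47 lay above 0. Mutant heart 2 was singled out for its low values in these same members, so leaving it out raises the mutant values by that choice. In both of the other mutant hearts, 12 of the 47 members were higher and 7 lower than in any WT heart. By the same rule 17.1% of all tested genes were higher and 16.4% lower. Heart 2 was not chosen by its values in all tested genes, so the shares are not a like comparison.

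**Figure D4:**
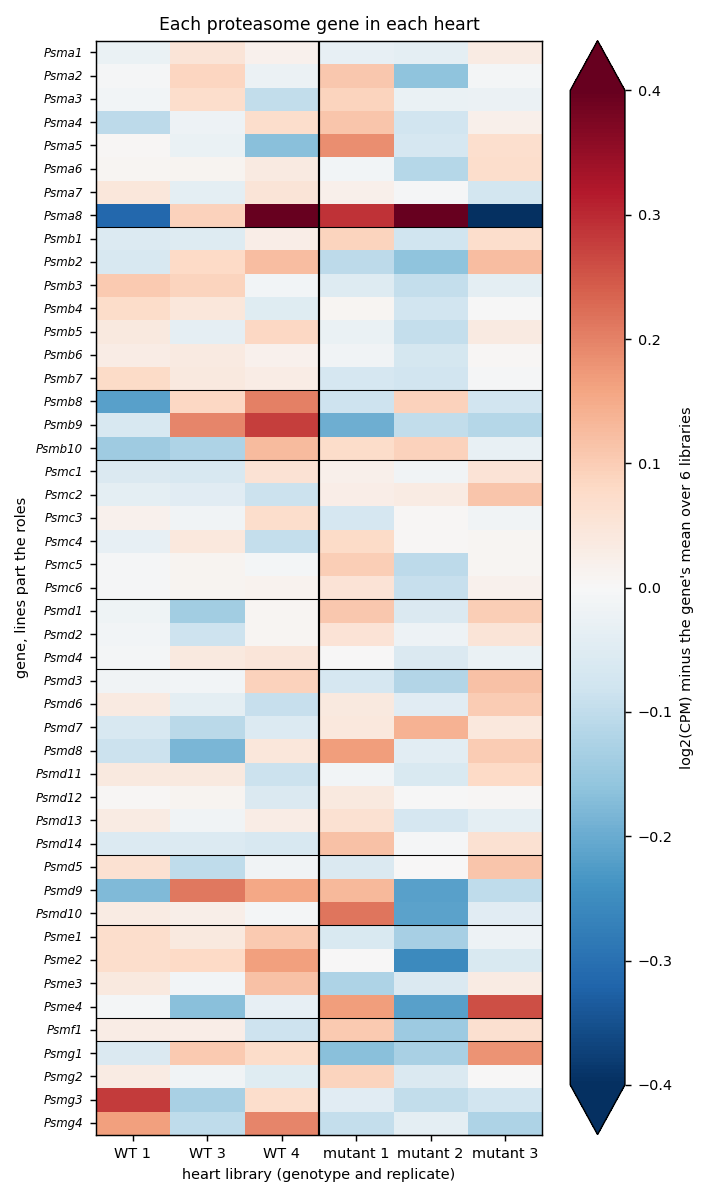
Log2 CPM of each proteasome gene (rows, parted by role) in each of the 6 heart libraries (columns, WT left and mutant right of the black line), minus the gene's mean over the 6, red above and blue below it. Mutant library 2 holds the lowest value of 10 of the 15 constitutive core genes and of 22 of all 47 members, WT library 4 is red in all 5 of the inducible and PA28 genes, and no role changes colour as a block at the line.

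Genes that work with the proteasome but fall outside the symbol pattern were likewise not called. Of 11 listed proteasome-associated genes, 0 were called in either direction and 7 had a log2 fold change above 0. *Akirin2*, a factor for nuclear import of proteasomes, came closest, at 33.3, 34.9 and 34.9 CPM in WT and 43.3, 38.3 and 40.8 CPM in mutant hearts. The groups did not overlap (0.25 on the log2 scale, standard error 0.07), and its adjusted p of 0.125 by edgeR's quasi-likelihood test missed the threshold. *Zfand5*, a proteasome activator of wasting muscle, was next, with 146 ± 9.09 CPM in WT hearts against 165 ± 9.92 CPM (log2 fold change 0.18, adjusted p = 0.247 by the same edgeR test).

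Of 15 genes listed for the control of proteasome expression, none was called. The list took in genes of protein export from the endoplasmic reticulum, such as *Vcp* and *Syvn1*. At its head stood the transcription factor gene *Nfe2l1* (480.1 ± 14.7 CPM in WT hearts, 483 ± 17.2 CPM in mutants). The smallest p belonged to *Ngly1*, which encodes the glycanase that activates that factor, at 50.5 ± 1.42 and 55.7 ± 0.690 CPM (log2 fold change 0.14, adjusted p = 0.295 by edgeR's quasi-likelihood test). *Sel1l*, a part of the retrotranslocation machinery of the endoplasmic reticulum, was next (log2 fold change -0.11, adjusted p = 0.424 by the same edgeR test). Of 14 ubiquitin and substrate shuttle genes none was called, and 5 were above 0.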

How the data were processed

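Poly-A RNA of ventricular myocardium from 3 WT and 3 *Dst-b* mutant mice was sequenced in pairs. The authors aligned reads to mouse genome GRCm38/mm10 by means of OLego and quantified expression in Quantas. The deposited files list 13003 genes, each with an estimated count (tags) and its RPKM. The paper names a TruSeq protocol and the labels a NEBNext directional kit. The files are named for CPM but hold counts, so the count test was used. In each library 8.45% to 13.8% of the counts were not whole and were rounded, which moved no member by more than 0.5.

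The 12955 genes reaching 1 CPM in 3 or more libraries were fitted in edgeR 4.0.16 (R 4.3.3) with TMM factors (0.98 to 1.018), genotype as the only term and the two-sided quasi-likelihood test with Benjamini-Hochberg adjustment over all tested genes. The biological coefficient of variation was 12.3%. Standard errors and 95% intervals come from that fit, and CPM are means ± SD over 3 hearts. The squared deviation of counts between pairs of hearts of 1 genotype, averaged over genes, was 14.8 to 30 times that expected from counting noise.

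The members and lists were chosen with earlier results of these data known, and the lists were written from general knowledge. Values per heart are given for the catalytic subunits, their inducible counterparts, the activators, the highest and lowest member of each role, and members without overlap at a p under 0.05. *Psma8*, *Psmd8*, *Psmd14* and the genes at both ends of the RPKM order were added after their values were seen. From each other list the called genes, or those with the 2 smallest p values, are named, and *Nfe2l1* was added. Some items that these rules would name are not reported here. Of the 47 members 13 share exon bases with another GENCODE M21 gene, 11 of them with one on the opposite strand. Alternatives were DESeq2 1.42.0, edgeR's exact test, other scalings, filters and thresholds, a replicate block and leaving out each library. The test was tested on simulated data. Figures were drawn with matplotlib 3.10.9.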

Additional observations from a re-analysis of the deposited data

How the results depend on the processing

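Under other scalings, no filter on low counts, a mean CPM of at least 5, an adjusted p under 0.05, DESeq2 and edgeR's exact test, the number of called members stayed at 0 higher and 0 lower. Leaving out 1 library gave 0 to 1 members called higher and a median log2 fold change of the members of -0.032 to 0.024. The 1 called was *Psme4*, and the median was 0.024, both without mutant replicate 2 (*Psme4* log2 fold change 0.28). The replicate numbers 1 and 3 occur in both genotypes. The deviations of hearts sharing a number had r = 0.00724 and -0.0492 across genes, within the -0.091 to 0.114 of hearts with different numbers. With so few shared numbers this check cannot exclude a pairing, and the main fit used none. With a replicate block, which leaves WT replicate 4 and mutant replicate 2 no weight, 2 members were called higher, *Psmd8* (log2 fold change 0.27) and *Psme4* (0.30), and 966 genes in all against 601. *Akirin2* was called with the replicate block and with DESeq2, so that 1 of the 11 other proteasome genes was higher there. DESeq2 called 1028 genes in all, and fits without 1 library 163 to 519. By CPM in place of RPKM the immunoproteasome share was 12.4% in WT and 13.1% in mutant hearts, and with GENCODE lengths, added after seeing the data, 9.01% and 9.56%, the cause being the lengths. Only the catalytic subunits, the activators and the highest and lowest member of each role were followed singly. Among these, without a call in any fit, 9 fold changes of 6 genes changed sign. With the block these were *Psmb5* (0.0038) and *Psmd3* (0.036), and the members' median also turned, to 0.0096. Members not followed singly changed sign as well. Of all 47, 28 lay above 0 with the block and 16 without mutant replicate 1, against 22 in the main fit. Of the 15 constitutive core genes 8 lay above 0 with the block, against 5. Leaving out 1 library gave -0.16 to 0.042 for *Psmb8*, -0.011 to 0.077 for *Psmd5*, -0.032 to 0.088 for *Psmf1* and -0.022 to 0.049 for *Psmg2*. Of the other values, 133 that answer a comparison and 289 of single genes kept their side of the threshold or lay within 1.5 times or the spread between hearts. The limma fits with pseudocounts, planned for values that were not counts, were not run. For 31 of the 47 members the 95% interval ended within 1.2-fold.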
